A study of Mus musculus with 4 samples.

Results

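The 10 genes described here carry skeletal muscle cells from stem cell to fused fibre, and they were chosen by name out of the 32285 genes counted in the series. *Pax7* and *Pax3* encode paired box factors of muscle stem cells, the satellite cells. *Myf5*, *Myod1*, *Myog* and *Myf6* encode the myogenic regulatory factors, *Mymk* and *Mymx* the membrane proteins Myomaker and Myomixer, *Cdh15* the adhesion protein M-cadherin, and *Mstn* the secreted growth inhibitor myostatin. The choice used their names and no measured value, although results of these data were known when it was made. In resting muscle a satellite cell lies quiet against its fibre and expresses *Pax7*, often with *Myf5*. After injury such cells take up MyoD, divide, then switch on myogenin, leave the cell cycle and fuse into fibres with the help of Myomaker and Myomixer, while a part of them returns to the resting state. The myogenic regulatory factors are basic helix-loop-helix proteins that pair with E proteins and bind E-boxes, short DNA motifs written CANNTG, in the promoters of muscle genes.

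Tibial muscle was profiled cell by cell in 4 droplet RNA libraries from *Nse-Bmp4* mice on the C57BL/6 strain, aged 6 to 8 weeks. Mouse *Bmp4* is expressed in them from a rat neuron-specific enolase promoter, a transgene that the Uninjured group carried as well, and no mouse without it is compared here. Cardiotoxin, a snake venom protein that kills muscle fibres and spares many satellite cells, was the injury, and muscles were taken without injury (Uninjured) or 1 day, 3 days or 7 days after it (dpi, days post injury). Each group was 1 library made from 3 pooled muscles, so that a difference between groups and a difference between libraries cannot be told apart, and no test between groups was made. The intervals in parentheses are exact 95% intervals that cover counting error only.

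The members were counted as unique molecular identifiers (UMIs), each of which marks 1 captured transcript. The libraries held 11722 to 23752 barcodes and 91146335 to 129007669 UMIs, with median UMIs per barcode between 3083 at 7 dpi and 8629 in Uninjured, and 52853 of 62665 barcodes were kept as cells. Pairs of libraries shared 30 to 95 barcodes, of which 0 were muscle-gated in both. A cell was called muscle-gated if it had at least 3 of 10 muscle lineage markers and more of these than of the markers of any other class, and none of the 10 genes described here was among the markers. This gate held 196 cells in Uninjured, 92 at 1 dpi, 405 at 3 dpi and 226 at 7 dpi, or 1.90%, 0.954%, 3.21% and 1.11% of the kept cells. Of its 10 markers, 8 or 9 were detected in at least 20% of the gated cells in each library, and *Des*, which encodes the muscle filament protein desmin, was detected in 91.3% to 98.3% of them. The summed level of 10 endothelial markers was 2.05 to 7.29 UMIs per 1000000 UMIs (CPM) in the muscle-gated cells against 5112 to 10410 CPM in endothelial cells. That of 10 immune markers was 23.4 to 77.8 CPM against 3044 to 4035 CPM in immune cells. The list of 10 mesenchymal stromal cell (MSC) lineage markers summed to 254 to 877 CPM, highest at 1 dpi, against 2325 to 3492 CPM in MSC lineage cells, and that of 10 mural markers to 81.2 to 492 CPM, also highest at 1 dpi, against 7848 to 10990 CPM in mural cells. Schwann cell markers summed to 17.3 to 102 CPM, highest in Uninjured. Of the 10 MSC lineage markers, 5, 3, 3 and 5 were detected in at least 20% of the muscle-gated cells in the order of the time points. Of the 10 mural markers, 1 was detected in at least 20% of the muscle-gated cells in each library, and 5 had 0 UMIs at 1 dpi. *Notch3*, a gene of the mural list, was 32.7-fold higher in muscle-gated than in other kept cells at 1 dpi, with 10 CPM added to both. The mural sum is thus not a level shared by the list. The part of cells of these other classes in the results was not tested. Median UMIs per muscle-gated cell were 6523, 4728.5, 12179 and 4600 in the order of the time points. In these sums, fewer cells of one kind and less RNA per cell cannot be told apart.

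Promoter sequences are shown for *Myog*, the member with the widest range of levels, and for *Myf5*, the early factor whose levels ran the other way from Uninjured to 1 dpi. Both are the 250 bases before the transcription start on build GRCm38.p6 as RefSeq gives them, read 5′ to 3′ on the strand of the gene, with every E-box in capitals. The *Myog* stretch is chr1:134289754-134290003 on the plus strand and the *Myf5* stretch is chr10:107486135-107486384 on the minus strand. The RefSeq start of *Myog* lies a few bases inside the GENCODE gene model.
Myog: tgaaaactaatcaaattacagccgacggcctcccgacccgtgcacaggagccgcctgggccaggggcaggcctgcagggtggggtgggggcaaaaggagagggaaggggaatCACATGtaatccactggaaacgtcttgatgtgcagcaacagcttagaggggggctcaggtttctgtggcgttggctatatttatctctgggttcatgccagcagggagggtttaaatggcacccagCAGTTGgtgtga
Myf5: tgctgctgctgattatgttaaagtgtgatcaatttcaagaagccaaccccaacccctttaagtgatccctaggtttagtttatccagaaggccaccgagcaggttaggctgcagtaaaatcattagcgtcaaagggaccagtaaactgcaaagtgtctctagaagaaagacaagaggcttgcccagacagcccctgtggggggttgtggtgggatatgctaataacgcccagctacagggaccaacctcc
The *Myog* stretch held 2 E-boxes, CACATG beginning 138 bases before the start and CAGTTG beginning 12 bases before it, and the *Myf5* stretch held 0. Of the other matched promoters, *Pax7* held 0, *Cdh15* 3 and *Mstn* 4, so that nothing is read from the printed pair. The motif CANNTG reads as CANNTG on the other strand too, and the matches do not overlap. Of 32851 promoters of the same length, 66.2% held at least 1 match and 31.8% at least 2, so that the count in *Myog* is common. A match is a string of letters, not a bound site, and its absence from this window says nothing of the factors that bind elsewhere. Of the 10 genes, 5 had a promoter in this table.

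Positions are on GRCm38, and all 10 genes are protein coding in GENCODE M21. *Myf5* (ENSMUSG00000000435, chromosome 10, 107482908 to 107486134) and *Myf6* (ENSMUSG00000035923, chromosome 10, 107492853 to 107494737) are neighbours on the minus strand, 6718 bases apart. *Pax3* (ENSMUSG00000004872, 78101267 to 78197134), *Myog* (ENSMUSG00000026459, 134289989 to 134292548) and *Mstn* (ENSMUSG00000026100, 53061640 to 53068079) lie on chromosome 1. *Pax7* (ENSMUSG00000028736) covers 139737062 to 139833528 on chromosome 4, and *Myod1* (ENSMUSG00000009471) covers 46376474 to 46379099 on chromosome 7. *Mymk* (ENSMUSG00000009214) covers 27061636 to 27072179 on chromosome 2, and *Mymx* (ENSMUSG00000079471) covers 45600971 to 45602102 on chromosome 17. *Cdh15* (ENSMUSG00000031962, chromosome 8, 122847966 to 122867397) shares bases with a second gene model on its strand that has no row in the counts.

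Most UMIs of the members came from the small muscle gate. It held 79.1% of all UMIs of *Pax7* in kept cells, 80.8% of *Myf5*, 86.4% of *Myod1*, 75.6% of *Myog*, 68.9% of *Mymk*, 73.7% of *Mymx* and 80.6% of *Cdh15*. *Pax3* and *Mstn* were the exceptions, with 27.6% and 2.33% in the gate. The 7 dpi library stood apart from the other libraries in this respect. There the gate held 57.3% of the *Pax7* UMIs, 54.6% of *Myog* and 47.3% of *Mymk*, against 82.7% to 87.2% of *Pax7* in the other libraries. By *Myog*, 86.7% of UMIs lay in the gate in Uninjured and 90.8% at 3 dpi. The shares of 7 dpi depended on the gate. With cell clusters in place of it, the muscle class of 7 dpi had 439 cells in place of 226. These cells held 2419 of the 3040 *Myog* UMIs, 418 of 518 of *Mymk* and 353 of 511 of *Pax7*.

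**Figure D1:**
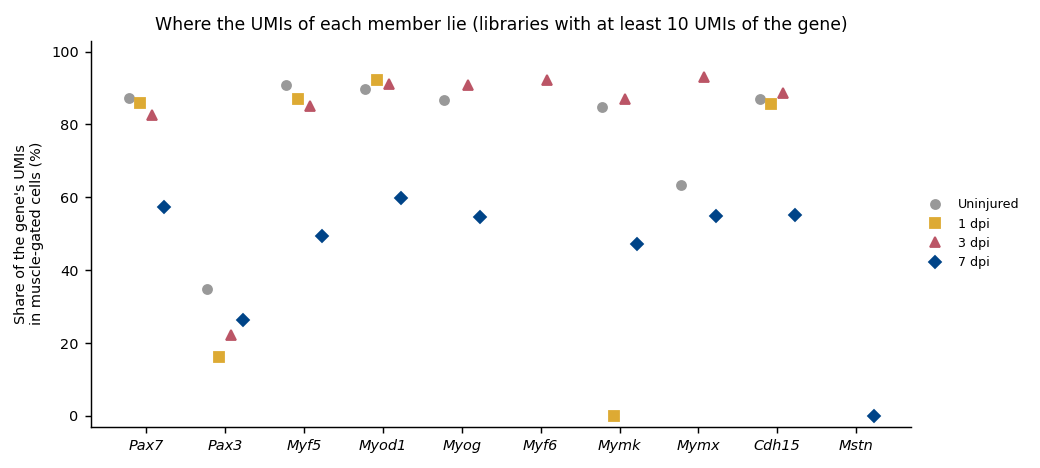
Share of the UMIs of each gene, over all kept cells of a library, that lay in muscle-gated cells (vertical axis, %), by gene (horizontal axis) and library (symbols), for libraries with at least 10 UMIs of the gene. The 7 dpi symbols of Pax7, Myf5, Myod1, Myog, Mymk and Cdh15 lie between 47.3% and 59.9%, below those of Uninjured and 3 dpi, and Pax3 lies between 16.1% and 34.7%.

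*Pax7*, which marks satellite cells, was detected in every library. Its level in muscle-gated cells was 412 CPM in Uninjured (379.7 to 445), 668 CPM at 1 dpi (597 to 744), 109 CPM at 3 dpi (100.4 to 118) and 239 CPM at 7 dpi (212 to 268). The highest level was at 1 dpi and the lowest at 3 dpi, and none of the 4 intervals overlapped. It was 1.62-fold higher at 1 dpi than in Uninjured (1.41 to 1.86), 6.14-fold lower at 3 dpi than at 1 dpi (5.36 to 7.03) and 2.20-fold higher at 7 dpi than at 3 dpi (1.91 to 2.53). A *Pax7* UMI was found in 161 of 196 cells in Uninjured, 80 of 92 at 1 dpi, 231 of 405 at 3 dpi and 120 of 226 at 7 dpi. With each cell thinned at random to 1000 UMIs, which sets all cells to 1 depth and left out 4 cells at 3 dpi and 1 at 7 dpi, these shares were 37.2%, 47.8%, 14.2% and 23.6%, in the same order. Immune cells, which should lack the gene, gave a background of 0.0955% to 0.167% of cells before thinning, at median depths of 2318.5 to 4622 UMIs. The log2 ratio of 3 to 1 dpi was -2.62 with all UMIs and -1.73 in thinned cells. The 7 dpi level was not past 2-fold over 3 dpi in thinned cells (log2 ratio 0.66), under linear filter limits (0.73) or with clusters in place of the gate (0.49).

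*Pax3*, a relative of *Pax7* that acts in embryonic muscle precursors and in some adult satellite cells, was sparse. The muscle-gated cells held 33 UMIs in Uninjured, 5 at 1 dpi, 12 at 3 dpi and 5 at 7 dpi, or 22.0, 10.2, 2.04 and 4.08 CPM. Its level at 1 dpi was 2.15-fold lower than in Uninjured (0.834 to 7.05), an interval that includes no difference. Against Uninjured it was 10.8-fold lower at 3 dpi (5.44 to 23.0) and 5.40-fold lower at 7 dpi (2.10 to 17.7). In Uninjured, 20 of the 24 cells with a *Pax3* UMI also had a *Pax7* UMI, where 19.7 would if detection of both were independent across cells. More of its UMIs lay outside the gate, with 60 in 48 of 8307 MSC lineage cells of Uninjured against 0 of 1201 immune cells. At the floor of 3 counts the latter stands for a share of 0.250%, and the exact upper limit is higher. The share of MSC lineage cells was 0.578% (0.426% to 0.765%) at a median of 9199 UMIs, and 0 of these 48 cells had 2 muscle markers. After thinning it was 0.0482% (0.0131% to 0.123%), which cannot be told from the immune background at equal depth. At 3 dpi the thinned share was 0.177% in MSC lineage cells (0.0847% to 0.324%) and 0% in immune cells (0% to 0.083%), so that these intervals did not overlap.

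*Myf5*, the earliest myogenic regulatory factor, followed *Pax7* up at 1 dpi and stayed low at 7 dpi. Its levels were 157 CPM in Uninjured (137 to 178), 317.5 CPM at 1 dpi (269.5 to 372), 88.5 CPM at 3 dpi (81.1 to 96.4) and 80.7 CPM at 7 dpi (65.6 to 98.2). The 3 and 7 dpi intervals overlapped, and both lay below that of Uninjured. The level at 1 dpi was 2.03-fold that of Uninjured (1.64 to 2.49), only just past 2-fold, with a log2 ratio of 1.02 that was as low as 0.62 over the alternatives, and it was 3.59-fold lower at 3 dpi than at 1 dpi (2.98 to 4.30). From 3 to 7 dpi the ratio was 0.912 (0.728 to 1.13). Of the 108 *Myf5* cells in Uninjured, 106 also had *Pax7*, and of the 60 at 7 dpi, 47 did.

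*Myod1* encodes MyoD, the factor of activated myoblasts, and was highest at 3 dpi. Its levels were 204 CPM in Uninjured (182 to 228), 143 CPM at 1 dpi (112 to 181), 486 CPM at 3 dpi (469 to 504) and 298 CPM at 7 dpi (268 to 330). The level at 3 dpi was 3.39-fold that at 1 dpi (2.68 to 4.36) and 2.38-fold that of Uninjured (2.12 to 2.69), and it was 1.64-fold lower again at 7 dpi (1.47 to 1.83). That last step, a log2 ratio of -0.71, was the weakest over the alternatives, which reached -1.27. In thinned cells the levels were 439 CPM at 3 dpi and 182 CPM at 7 dpi, past 2-fold. The lower level at 1 dpi than in Uninjured, 1.42-fold (1.10 to 1.87), did not hold with the deepest barcodes kept, of which 1 dpi had 3. Without an upper limit on UMIs and genes, the levels were 219 CPM at 1 dpi and 231 CPM in Uninjured. The share of cells with a *Myod1* UMI was 43.9%, 37.0%, 66.9% and 49.1% in the order of the time points, and 14.3%, 15.2%, 29.9% and 16.0% in thinned cells, so that 3 dpi led in both.

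*Myog* encodes myogenin, which drives terminal differentiation, and it had the widest range of levels among the members with at least 10 UMIs. Muscle-gated cells held 2176 *Myog* UMIs in Uninjured (1452 CPM, 1391 to 1514), 0 at 1 dpi, 2162 at 3 dpi (367 CPM, 351 to 382) and 1661 at 7 dpi (1354 CPM, 1290 to 1421). The 0 UMIs in 92 cells at 1 dpi stand for a level of 6.15 CPM and a share of cells of 3.26% at the floor of 3 counts. The exact upper limits are 7.56 CPM and 3.93%. Against that floor of 3 UMIs, *Myog* was at least 236-fold lower at 1 dpi than in Uninjured and at least 59.7-fold higher at 3 dpi than at 1 dpi. Among all 9641 kept cells at 1 dpi, the gene had 1 UMI. Of the 9 muscle-gated barcodes that the cell filter removed at 1 dpi, 2 held *Myog*, with 2 UMIs in all. At 7 dpi it was 3.69-fold higher than at 3 dpi (3.46 to 3.94) and close to the level of Uninjured, with a ratio of 0.933 (0.874 to 0.995). In Uninjured the UMIs sat in 40 cells with a median of 59 UMIs and a maximum of 144. Cells with *Myog* held a median of 8 UMIs at 3 dpi, in 113 cells, and of 19 at 7 dpi, in 71 cells. In cells thinned to 1000 UMIs, *Myog* was found in 15.8%, 0%, 13.97% and 26.7% of muscle-gated cells in the order of the time points, and before thinning in 0.0191% to 1.076% of immune cells. The order of the *Myog* levels of Uninjured and 7 dpi turned in thinned muscle-gated cells, with 755 CPM (148 UMIs) in Uninjured and 929 CPM (209 UMIs) at 7 dpi. A small number of strongly positive cells thus carried the gene in Uninjured muscle, and the 10 highest of these cells held 50.7% of its UMIs.

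**Figure D2:**
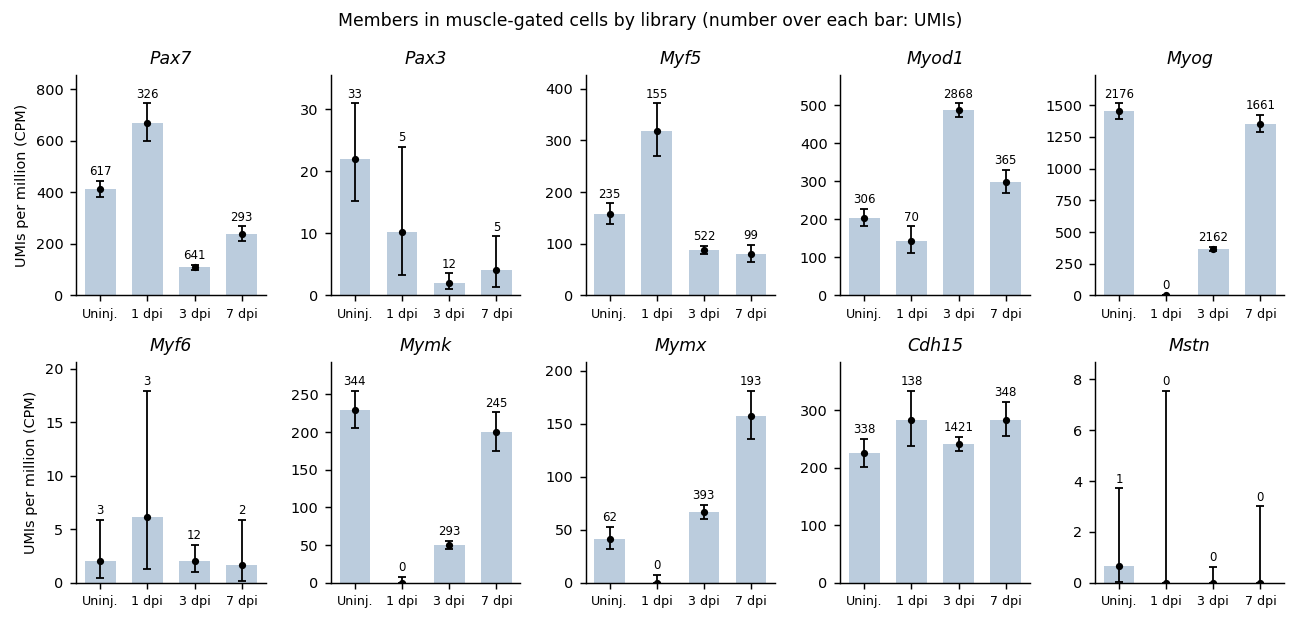
Level of each of the 10 genes in muscle-gated cells (vertical axis, UMIs per 1000000 UMIs of these cells) in each library (horizontal axis). Bars and points are the summed level, lines are exact 95% Poisson intervals, and the number over each bar is the UMI count, which is 0 at 1 dpi for Myog, Mymk, Mymx and Mstn.

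*Myf6*, which encodes Mrf4, a factor of mature fibres, was at the limit of detection with 3, 3, 12 and 2 UMIs in the order of the time points. These are 2.001, 6.15, 2.04 and 1.63 CPM, and all 4 intervals overlapped. Intact fibres are too large for droplets, and levels in fibres are not measured here. Its neighbour *Myf5* had 235, 155, 522 and 99 UMIs in the same cells.

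The fusion genes shared with *Myog* a count of 0 in the kept muscle-gated cells of 1 dpi. The 9 muscle-gated barcodes that the cell filter removed there held 1 UMI of *Mymx* and 0 of *Mymk*. *Mymk* had 344 UMIs in Uninjured (229.5 CPM, 206 to 255), 0 at 1 dpi, 293 at 3 dpi (49.7 CPM, 44.2 to 55.7) and 245 at 7 dpi (199.7 CPM, 176 to 226). It was at least 37.3-fold lower at 1 dpi than in Uninjured, and 4.02-fold higher at 7 dpi than at 3 dpi (3.38 to 4.78). *Mymx* had 62 UMIs in Uninjured (41.4 CPM, 31.7 to 53.0), 0 at 1 dpi, 393 at 3 dpi (66.65 CPM, 60.2 to 73.6) and 193 at 7 dpi (157 CPM, 136 to 181). The partners differed in their order over time, since *Mymk* at 7 dpi was 0.870 of its Uninjured level (0.736 to 1.03) while *Mymx* was 3.80-fold above its own (2.84 to 5.15). At 3 dpi the contrast was clearer still, with *Mymk* 4.62-fold below Uninjured (3.94 to 5.42) and *Mymx* 1.61-fold above (1.23 to 2.14). The *Mymx* value of Uninjured rested on 12 cells, of which 1 cell held 27.4% of its UMIs. In cells thinned to 1000 UMIs the order of *Mymk* turned, with 173 CPM at 7 dpi (39 UMIs) and 102 CPM in Uninjured (20 UMIs), and *Mymx* had 93.3 CPM (21 UMIs) and 25.5 CPM (5 UMIs).

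In single cells, all 29 *Mymk* cells of Uninjured also had *Myog*, as did 60 of 76 at 3 dpi and 46 of 48 at 7 dpi. All 12 *Mymx* cells of Uninjured and all 31 at 7 dpi had *Myog*, and at 3 dpi 61 of 73 did. *Mymk* and *Mymx* were detected together in 11, 46 and 20 cells of Uninjured, 3 and 7 dpi. *Pax7* and *Mymk* were detected together in 2 cells of Uninjured and 1 of 7 dpi, but in 28 cells of 3 dpi, where the cells were deepest. If detection of both were independent across cells, 23.8, 25.5 and 43.35 cells would hold both in Uninjured, 7 and 3 dpi.

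*Cdh15*, the adhesion gene, varied least among the members with at least 10 UMIs in every library. Its levels were 225.5 CPM in Uninjured (202 to 251), 283 CPM at 1 dpi (238 to 334), 241 CPM at 3 dpi (229 to 254) and 284 CPM at 7 dpi (255 to 315). It passed 2-fold in none of the 3 successive comparisons, and its ratios were 1.25 (1.02 to 1.53), 0.852 (0.715 to 1.02) and 1.18 (1.04 to 1.32). *Mstn*, which restrains muscle growth and is made by fibres, had 1 UMI in the muscle-gated cells of Uninjured and 0 at the other time points. These counts of 0 stand for 6.15, 0.509 and 2.45 CPM at the floor of 3 counts, and the exact upper limits are higher. Over all kept cells it had 43 UMIs, of which 23 lay in 12 of 8474 MSC lineage cells at 7 dpi. None of these 12 cells had 2 muscle markers.

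Over the 10 genes, 8 had at least 10 UMIs in the higher of Uninjured and 1 dpi. *Myf5* was past 2-fold higher at 1 dpi, against 15.6% of the 8052 genes with that minimum, and *Pax3*, *Myog*, *Mymk* and *Mymx* were past 2-fold lower, against 18% of genes. From 1 to 3 dpi, 4 of 7 members were past 2-fold higher (*Myod1*, *Myog*, *Mymk* and *Mymx*), against 29.4% of 9177 genes, and *Pax7* and *Myf5* were past 2-fold lower, against 15.3%. From 3 to 7 dpi, 4 of 8 were past 2-fold higher (*Pax7*, *Myog*, *Mymk* and *Mymx*), against 8.87% of 10705 genes, and 0 were past 2-fold lower, against 17.2%. The median log2 ratio of all these genes was -0.10, 0.37 and -0.24 in the 3 comparisons. The minimum of 10 UMIs applies to the higher library, so a gene higher in the library with more gated UMIs met it at a lower CPM. The medians and the shares of all genes thus lean towards that library, which was 3 dpi in both later comparisons. No general shift of levels can be read from them. All these counts come from single libraries and are not tests.

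Muscle-gated cells were then split into states by genes other than the members. Cells with at least 3 of 8 markers of early differentiation, such as *Actc1* and *Myh3*, were called differentiating, other cells with at least 2 of 8 cycling markers, such as *Mki67* and *Top2a*, cycling, and the rest neither. Uninjured had 167 cells of neither state, 8 cycling and 21 differentiating. At 1 dpi all 92 cells were of neither state, with an exact upper limit of 3.93% for each of the others. At 3 dpi there were 130, 214 and 61 and at 7 dpi 144, 39 and 43. Cycling cells thus made up 4.08% (1.78% to 7.88%), 0%, 52.8% (47.9% to 57.8%) and 17.3% (12.6% to 22.8%) of the gate. Depth moved with state, with median UMIs at 3 dpi of 3186 in neither, 17887 in cycling and 22103 in differentiating cells, and its part in the state calls was not tested.

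The time course of *Pax7* looked different within cells of neither state, and it differed between the states. In cells of neither state its level was 547 CPM in Uninjured (505 to 593), 668 CPM at 1 dpi (597 to 744), 458 CPM at 3 dpi (406 to 516) and 357 CPM at 7 dpi (312.5 to 407). The step from 1 to 3 dpi, 6.14-fold over the whole gate, was 1.46-fold lower here (1.24 to 1.72). From 3 to 7 dpi the direction in cells of neither state was opposite to that of the whole gate, with a level 1.28-fold lower at 7 dpi (1.07 to 1.54) in place of 2.20-fold higher. At 3 dpi cycling cells had 75.1 CPM of *Pax7* (66.9 to 84.1) and differentiating cells 51.0 CPM (39.3 to 65.1), 6.10-fold and 8.99-fold below neither. Cycling cells of 7 dpi had 245 CPM, 3.265-fold above those of 3 dpi (2.44 to 4.30), the direction of the whole gate. Differentiating cells of 7 dpi had 6.00 CPM on 2 UMIs, 8.49-fold below those of 3 dpi (2.26 to 71.6). Cycling and differentiating cells held most UMIs of the 3 dpi gate, and they weigh by their depth in a sum over cells. *Pax3*, 10.8-fold lower at 3 dpi than in Uninjured over all muscle-gated cells, was 2.48-fold lower within cells of neither state (0.922 to 8.35) on 5 and 23 UMIs, an interval that includes no difference.

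*Myf5* within cells of neither state was 1.49-fold higher at 1 dpi than in Uninjured (1.21 to 1.84), and 1.38-fold lower at 3 dpi than at 1 dpi (1.09 to 1.75). From 3 to 7 dpi it was 1.798-fold lower (1.358 to 2.394), where the ratio over the whole gate was 0.912 (0.728 to 1.13). Over the whole gate, *Myf5* at 3 dpi lay below Uninjured. Within cells of neither state, its intervals at 3 dpi (193.1 to 271.9 CPM) and in Uninjured (186.3 to 241.6 CPM) overlapped. *Myod1* in the same cells was 132, 143, 267 and 211 CPM in the order of the time points, and the 3 dpi level was 2.02-fold that of Uninjured (1.60 to 2.55). In cycling cells *Myod1* was 536 CPM in the 8 cells of Uninjured (386 to 724), 471 CPM at 3 dpi (449.9 to 492.5) and 218 CPM at 7 dpi (164 to 283). In differentiating cells it was 374, 640.5 and 525 CPM. *Myod1* was thus higher in differentiating cells than in neither in each of these 3 libraries, by 2.83, 2.40 and 2.49-fold.

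Differentiating cells carried most UMIs of the late genes. None of these genes defined the state, but its markers belong to the same step of muscle differentiation. The shares below are thus a description and no independent support. Differentiating cells made up 10.7% of the gate in Uninjured, 15.1% at 3 dpi and 19.0% at 7 dpi, and were deeper by median than the other states. They held 82.0% of the *Myog* UMIs of the gate in Uninjured, 79.6% at 3 dpi and 80.5% at 7 dpi, and the corresponding shares of *Mymk* were 80.5%, 80.2% and 78.8%. All 62 *Mymx* UMIs of Uninjured lay in them, as did 86.5% at 3 dpi and 93.8% at 7 dpi. *Myog* was 17.0-fold higher in differentiating cells than in neither in Uninjured (15.2 to 19.1), 7.93-fold at 3 dpi (6.5 to 9.78) and 8.91-fold at 7 dpi (7.84 to 10.2). For *Mymk* these ratios were 14.5, 22.3 and 7.58.

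The level of *Myog* within differentiating cells also differed between libraries. It was 5661 CPM in the 21 cells of Uninjured (5401 to 5930), 1372 CPM in the 61 cells of 3 dpi (1308 to 1438) and 4016 CPM in the 43 cells of 7 dpi (3804 to 4237), or 4.13-fold lower at 3 dpi than in Uninjured (3.86 to 4.41). *Mymk* followed with 878.5, 187 and 579 CPM. *Mymx* did not, with 197, 271 and 543 CPM, and its 7 dpi level was 2.76-fold that of Uninjured (2.06 to 3.75). Every differentiating cell of Uninjured and 7 dpi had a *Myog* UMI, and 49 of 61 at 3 dpi did. Differentiating cells had median depths of 15225 UMIs in Uninjured, 22103 at 3 dpi and 7809 at 7 dpi. The state rests on detected markers, and the part of depth in these differences between libraries was not tested.

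The early genes were also counted in the differentiating cells of 3 dpi. *Pax7* was 51.0 CPM there against 3.17 CPM in Uninjured (1 UMI in 21 cells) and 6.00 CPM at 7 dpi (2 UMIs in 43 cells), and *Myf5* was 65.3 CPM against 0 UMIs and 9.004 CPM (3 UMIs). A *Pax7* UMI was found in 27 of the 61 cells at 3 dpi, 1 of 21 in Uninjured and 1 of 43 at 7 dpi. After thinning it was found in 1 of 61, 0 of 21 and 0 of 43, so that no difference in the share of cells was detectable at equal depth. The ratio of the *Pax7* levels at 3 dpi and in Uninjured was 16.1 (2.78 to 644.8), a wide interval because of the single UMI. *Cdh15* in differentiating cells was 327 CPM at 3 dpi (296 to 359.8), 124 CPM in Uninjured (87.95 to 169) and 195 CPM at 7 dpi (151 to 248.7).

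**Figure D3:**
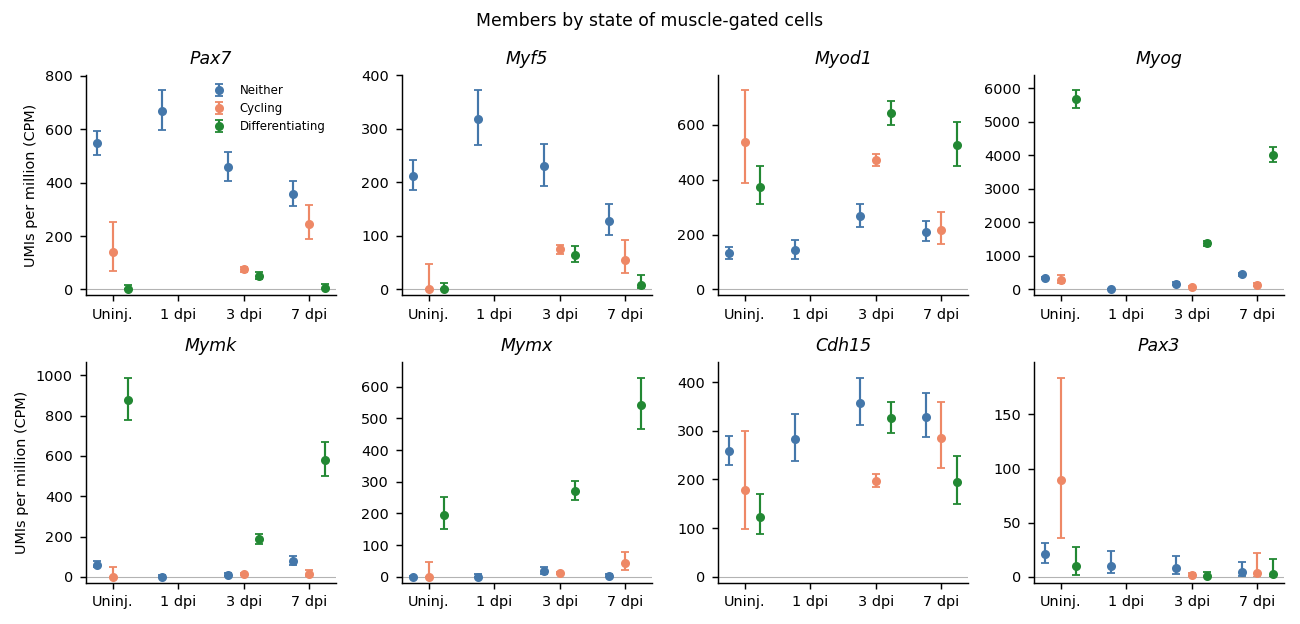
Level of 8 of the genes (vertical axis, UMIs per 1000000 UMIs of the cells of a state) in cells of neither state, cycling cells and differentiating cells of the muscle gate (colours) in each library (horizontal axis). Points are summed levels and lines exact 95% Poisson intervals, 1 dpi has no cycling or differentiating cell, and Pax7 of neither state lies between 357 and 668 CPM in all libraries.

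The joint detection of *Pax7*, *Myod1* and *Myog* was counted in single cells. In Uninjured, 106 of 196 cells (54.1%) had *Pax7* alone of the 3, 45 had *Pax7* with *Myod1*, 30 had *Myod1* with *Myog*, and 10 had *Pax7* with *Myog* with or without *Myod1*. At 1 dpi, 49 of 92 cells (53.3%) had *Pax7* alone, 31 had *Pax7* with *Myod1* and 0 had *Myog*. At 3 dpi the cells spread over more combinations, with 97 of 405 (24.0%) with *Pax7* alone, 87 with *Pax7* and *Myod1*, 80 with *Myod1* alone, 60 with *Myod1* and *Myog* and 44 with all 3. At 7 dpi, 83 of 226 (36.7%) had *Pax7* alone and 55 had *Myod1* with *Myog*. *Myod1* alone held 19.8% of cells at 3 dpi (16.0% to 24.0%), against 1.02%, 3.26% and 8.85% in Uninjured, 1 and 7 dpi, and in thinned cells 21.2% against 6.63%, 8.70% and 7.11%. The cells with all 3 genes at 3 dpi shrank to 1 of 401 after thinning, so that this class was not detectable at equal depth. *Pax7* alone held 35.2%, 41.3%, 12.2% and 22.2% of thinned cells, with 3 dpi lowest as before. Of the cells with *Myog*, 39 of 40 in Uninjured, 104 of 113 at 3 dpi and 62 of 71 at 7 dpi also had *Myod1*.

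**Figure D4:**
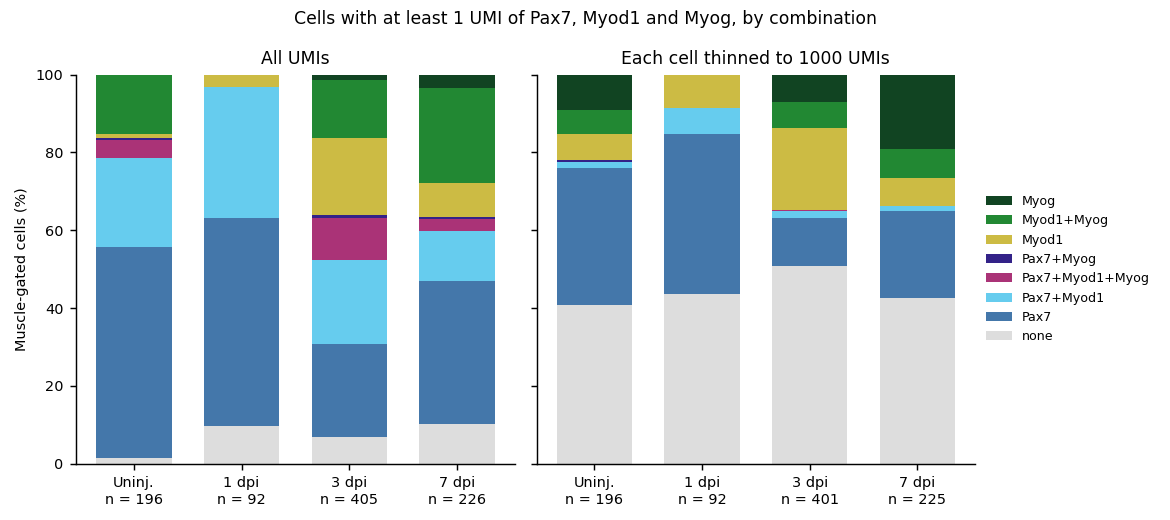
Muscle-gated cells by the combination of Pax7, Myod1 and Myog of which at least 1 UMI was found (colours), as a share of the gated cells of each library (vertical axis, %), with all UMIs (left) and with each cell thinned to 1000 UMIs (right). Pax7 alone makes up 54.1%, 53.3%, 24.0% and 36.7% of cells with all UMIs, and no 1 dpi cell falls in a class with Myog.

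Cells with several myogenic factors outside the gate were most numerous at 7 dpi. Cells with at least 2 of *Pax7*, *Myf5*, *Myod1* and *Myog* numbered 185, 79, 335 and 264, of which 164, 69, 276 and 137 were muscle-gated. At 7 dpi, 43 of the others were MSC lineage cells, 40 had no class and 36 were chondrocytes, and 37 of all those outside the gate had 2 muscle markers. *Myog* was detected in 168 of 4050 chondrocytes at 7 dpi (4.15%, 3.56% to 4.81%), in 160 of 8474 MSC lineage cells (1.89%) and in 21 of 1952 immune cells (1.076%), at median depths of 3059.5, 4921.5 and 2318.5 UMIs. In cells thinned to 1000 UMIs these were 1.95% (1.54% to 2.43%), 0.856% (0.669% to 1.078%) and 0.799% (0.448% to 1.32%). The chondrocyte share lay above both others at equal depth, and the MSC lineage share lay within the background that immune cells gave. The muscle-gated cells of 7 dpi, in turn, had 84.0 CPM of the 10 chondrocyte markers, against 0 to 2.05 CPM in the other libraries. Free RNA and doublets as sources of these UMIs were not tested. Of the 120 *Myog* UMIs in immune cells at 7 dpi, 73 lay in 1 cell. At 1 dpi, 15 of the 20 *Mymk* UMIs of all kept cells lay in 2 immune cells and 0 in muscle-gated cells. In Uninjured, 35 MSC lineage cells held 1 *Mymx* UMI each (0.421%, 0.294% to 0.586%), 0 of them with 2 muscle markers, against 0 of 1201 immune cells. After thinning the share was 0.0361% (0.00745% to 0.105%), within the interval of immune cells (0% to 0.307%).

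Other genes of the pathway were read by list in the same cells. The list of genes of satellite cell quiescence and Notch signalling (*Calcr*, *Spry1*, *Hes1*, *Hey1*, *Heyl*, *Notch1*, *Cd34* and *Sdc4*) had 3 of 8 genes past 2-fold higher at 1 dpi than in Uninjured, 8 of 8 past 2-fold lower at 3 than at 1 dpi and 5 of 8 past 2-fold higher at 7 than at 3 dpi, where 15.6%, 15.3% and 8.87% of all genes were. Its median log2 ratios were 0.77, -2.19 and 1.14. *Calcr*, the calcitonin receptor of resting satellite cells, went from 58.0 CPM in Uninjured to 152 at 1 dpi, 9.84 at 3 dpi and 26.1 at 7 dpi. *Heyl*, a Notch target, had 130, 414, 71.2 and 127 CPM. *Calcr* and *Heyl* thus had the order of levels of *Pax7*, with the maximum at 1 dpi and the minimum at 3 dpi. *Spry1* (400, 729, 56.1 and 219 CPM) had that order too. *Notch1* (127, 149.5, 61.05 and 136 CPM) shared only the maximum and minimum, and the rest of the list did not share both. *Hes1* (211.5, 186, 67.8 and 147.5 CPM) and *Hey1* (50.7, 43.0, 12.0 and 35.05 CPM) were highest in Uninjured. *Cd34* (27.8 CPM at 3 dpi and 26.1 at 7 dpi) and *Sdc4* (490 and 428 CPM) were lowest at 7 dpi. For *Cd34* the ratio of 7 to 3 dpi was 0.938 (0.621 to 1.38), an interval that includes no difference.

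Of 11 muscle fibre genes, the 9 with enough UMIs were all past 2-fold higher at 3 dpi than at 1 dpi (median log2 ratio 4.01, with genes at 0 set at their bound), as were 29.4% of all genes, and 6 of 9 were past 2-fold lower at 1 dpi than in Uninjured, as were 18% of all genes. *Ttn*, which encodes the giant protein titin, had 166 UMIs in Uninjured, 0 at 1 dpi, 5722 at 3 dpi and 672 at 7 dpi. *Acta1*, skeletal actin, was 351 CPM in Uninjured, 2.05 at 1 dpi (1 UMI), 172.5 at 3 dpi and 738.5 at 7 dpi. *Acta1* was thus 4.28-fold higher at 7 than at 3 dpi (3.91 to 4.69), while *Ttn* was 1.77-fold lower (1.63 to 1.92). From 3 to 7 dpi, 3 of 10 fibre genes were past 2-fold higher and 1 lower, against 8.87% and 17.2% of all genes.

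E proteins are the partners of the myogenic factors and Id proteins compete for these partners. Of these 7 genes, 6 had enough UMIs. *Id1* was past 2-fold lower at 1 dpi than in Uninjured, and *Id2* past 2-fold lower at 7 than at 3 dpi. From 1 to 3 dpi, 3 were past 2-fold higher, *Id2* 3.42-fold (2.51 to 4.79), *Id1* 2.30-fold (1.73 to 3.13) and *Tcf3* 2.05-fold (1.27 to 3.55), and *Tcf4* was 2.19-fold lower. Of all genes, 29.4% were past 2-fold higher and 15.3% lower between these time points. *Id3* was 1115, 1248, 692 and 644 CPM in the order of the time points, and passed 2-fold in none of the comparisons. *Id1* and *Id3* are also targets of BMP signals, and all libraries carry the *Bmp4* transgene. Of the MEF2, SIX-family and EYA-family cofactors, *Mef2a* was 3.89-fold higher at 3 than at 1 dpi (2.66 to 5.92) and *Mef2c* had 28, 0, 89 and 62 UMIs, with a 3.35-fold higher level at 7 than at 3 dpi (2.38 to 4.68). In the list of 6 cofactors, 2, 3 and 1 were past 2-fold higher and 2, 0 and 3 lower in the 3 comparisons, where 15.6%, 29.4% and 8.87% of all genes were higher and 18%, 15.3% and 17.2% lower.

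Accessory fusion genes did not share 1 time course. *Myof* (myoferlin) had 10.7, 10.2, 143 and 32.6 CPM and *Cdh2* (N-cadherin) 6.00, 8.19, 79.7 and 18.8 CPM, both highest at 3 dpi, when *Myod1* was highest. *Jam3*, a junction protein, had 145, 53.3, 36.5 and 150.0 CPM. Of 11 such genes, 5, 5 and 7 met the UMI minimum in the 3 comparisons, and 0, 2 and 3 were past 2-fold higher and 2, 1 and 2 lower. Among 6 genes of cell cycle entry and exit, *Ccnd1* (cyclin D1) was 3.11-fold lower at 1 dpi than in Uninjured and 4.01-fold higher at 3 than at 1 dpi (3.11 to 5.26), and *Cdkn1a* (p21) was 2.98-fold higher at 3 than at 1 dpi (2.36 to 3.81). Of this list, 0 of 5, 3 of 5 and 1 of 6 genes were past 2-fold higher in the 3 comparisons and 2, 1 and 0 lower. Of 9 myostatin receptors and antagonists, 2, 4 and 7 met the minimum, with 1, 1 and 2 past 2-fold higher and 0, 1 and 1 lower, and the antagonist *Fst* (follistatin) was 4.39-fold higher at 7 than at 3 dpi (2.63 to 7.31) on 32 and 35 UMIs. Of all genes, 15.6%, 29.4% and 8.87% were past 2-fold higher and 18%, 15.3% and 17.2% lower in these comparisons, and lists this short allow no reading of their counts against such shares.

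Genes with the most similar pattern were sought over the 9 groups of state and library with at least 20 muscle-gated cells, among 8010 genes, by Pearson correlation of log2(CPM + 10). *Pax7* was most like *Zfp36l2* (r = 0.995), *Heyl* (0.987) and *Plxnd1* (0.987). *Myog* was most like *Aamdc* (0.979), *5430431A17Rik* (0.964) and *Pnmal2* (0.960). *Mymk* was most like *Aamdc* (0.986), *5430431A17Rik* (0.979) and *Tmcc3* (0.975). The groups share libraries and differ in depth, and with this many genes the highest values are a description only.

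The filter on depth, mitochondrial share and doublets removed 115 of 520 muscle-gated barcodes at 3 dpi, 77 of them for high depth, against 14 of 210, 9 of 101 and 25 of 251 in the other libraries. The level of *Pax7* at 3 dpi was 87.1 CPM with all barcodes in place of 109, and that of *Myog* was 339.6 CPM in place of 367.

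**Figure D5:**
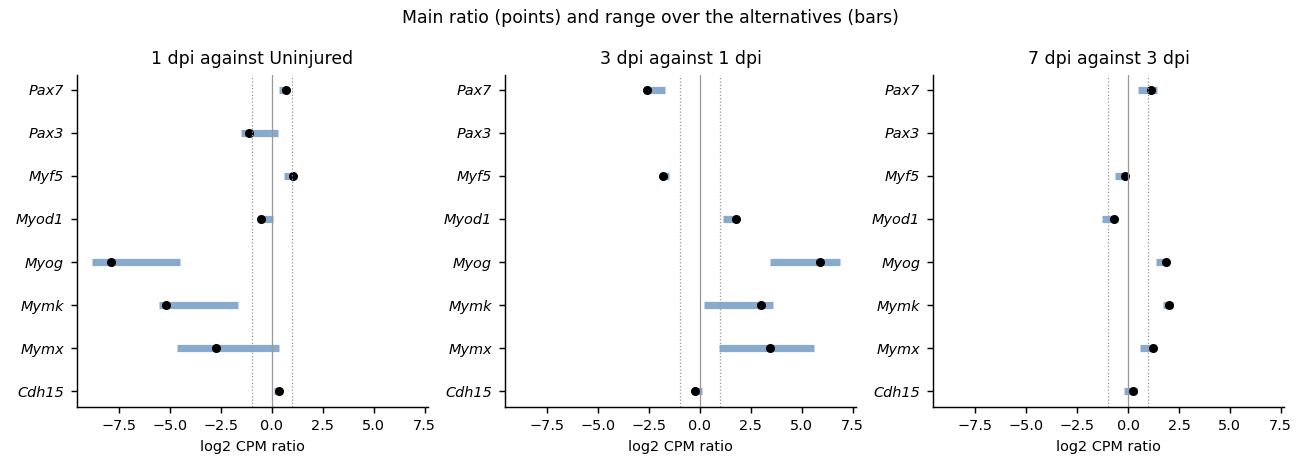
Log2 ratio of the level in muscle-gated cells between successive libraries (horizontal axis) for 8 of the genes (vertical axis), with points for the values reported and bars for the range over 8 alternative gates, filters and depths. Dotted lines mark 2-fold, and bars cross 0 for Pax3, Myod1 and Mymx at 1 dpi against Uninjured and for Cdh15 in the later comparisons. Ratios with 0 UMIs are bounds, and genes without the UMI minimum have no point.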

How the data were processed

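The authors aligned reads and counted UMIs per gene and barcode with Cell Ranger 5.0.0 on mm10, per the labels, and deposited the raw counts of each library as a sparse matrix. The methods also describe a down-sampling step, and its order relative to these counts is not given in the sources used here. Seurat 3.1.1 is named in the submitters' processing notes.

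Barcodes within 2 SD of the library mean of log10 UMIs and log10 genes, with at most 10% mitochondrial UMIs and outside the highest 7.5% of Scrublet scores were kept. A cell took the class, of 7, with the most of its 10 markers detected, at least 3 and without a tie. Members were named by the list itself, and pathway genes by fixed lists. For *Pax7*, *Myod1*, *Myog*, *Mymk* and *Mstn* the 3 most similar genes were named, among genes with at least 100 UMIs, leaving out members and gate genes. None qualified for *Mstn*, and those of *Myod1* are not reported here. Members and lists were chosen with earlier results of these data known. CPM is UMIs per 1000000 UMIs of the summed cells. Levels have exact Poisson intervals, shares exact Clopper-Pearson intervals and ratios exact conditional binomial intervals. A gene with 0 UMIs was given a floor of 3 UMIs per library. A gene was called past 2-fold with at least 10 UMIs in the higher library. With 1 library per time point no test across samples was possible. In data simulated for 3 dpi against 1 dpi on 9455 genes, with 200 genes changed 4-fold, 99.0% of these were called, 97.0% of intervals held the true ratio, and 5.92% of unchanged genes passed 2-fold. These rates do not cover differences between replicate libraries, which 1 library per time point cannot give. Doublets and clusters used scanpy 1.11.5, and intervals scipy 1.17.1, under Python 3.11.15. Alternatives changed the markers needed, doublet removal, the cell filter, the class definition, the depth and the UMI minimum.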

Additional observations from a re-analysis of the deposited data

Results flagged for a closer look

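The barcodes that passed the muscle gate but were removed by the cell filter enter no comparison, and some members had a counting interval wholly above that of the removed barcodes of Uninjured (14 barcodes, median 14582.5 UMIs). *Myf5* was 66.2 CPM in the 9 removed barcodes of 1 dpi, 69.7 CPM in the 115 of 3 dpi and 76.6 CPM in the 25 of 7 dpi, against 8.08 CPM in Uninjured. *Myod1* was 535.7 CPM at 3 dpi against 327 CPM, while its 439.6 CPM at 1 dpi (354.8 to 538.5) overlapped the interval of Uninjured (260.0 to 406.9). *Myog* was 300.7 CPM at 3 dpi and 201.9 CPM at 7 dpi, *Mymk* 53.4 and 83.5 CPM, and *Mymx* 75.3 CPM at 3 dpi, against 0 UMIs of each in Uninjured. At 3 dpi these members were found in 28 (*Mymx*) to 105 (*Myod1*) of the 115 barcodes. Elsewhere few barcodes held them. *Myf5* lay in 4 of 9 at 1 dpi and 8 of 25 at 7 dpi, against 2 of 14 in Uninjured. At 7 dpi, *Myog* lay in 5 of 25 and *Mymk* in 2. The intervals take UMIs as independent and leave out the spread between barcodes. Other intervals lay wholly below that of Uninjured, namely *Pax7* at 3 dpi (49.04 to 63.79 CPM against 68.65 to 154.0) and *Myod1* at 7 dpi (63.66 to 180.9 CPM against 260.0 to 406.9). The removed barcodes of 3 dpi had a median of 40814 UMIs, and 77 of them were removed for high depth. Doublets were called in 7 of the 14 of Uninjured, 2 of the 9 of 1 dpi, 25 of the 115 of 3 dpi and 17 of the 25 of 7 dpi. The removed sets thus differ in their mix of reasons for removal.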

How the results depend on the processing

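The number of members past 2-fold higher at 1 dpi than in Uninjured (*Myf5*) was 0 in place of 1 with at least 4 markers, with all deposited barcodes, in thinned cells and with no upper limit on UMIs and genes, the last chosen after seeing the data. In thinned cells, 2 in place of 4 were lower at 1 dpi, 2 in place of 4 higher at 3 than at 1 dpi, 2 in place of 4 higher at 7 than at 3 dpi, and 1 in place of 0 lower (*Myod1*). From 3 to 7 dpi, 2 were higher under linear filter limits, and 1 was lower with at least 4 markers and 2 with Leiden clusters, which put 439 cells in the 7 dpi muscle class in place of 226. The cause of these was not tested. In thinned cells the log2 ratio of 1 dpi to Uninjured turned to 0.28 for *Pax3*, on 4 UMIs at 1 dpi and 7 in Uninjured. It turned to 0.35 for *Mymx*, a bound against 0 UMIs. *Pax7* had log2 ratios of 0.34 to 0.74, -2.75 to -1.73 and 0.49 to 1.42 in the 3 comparisons over the alternatives, and *Myog* -8.81 to -4.53, 3.46 to 6.89 and 1.37 to 2.01. No paired analysis was possible because each time point is 1 library and the labels give no replicate numbers, and for the same reason no replicate could be left out. Few cells limit 1 dpi, where 92 cells and a floor of 6.15 CPM bound every level.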
